A study of Mus musculus with 12 samples.

Results

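The aminoacyl-tRNA synthetases were examined as the 36 mouse genes named in a preset list, 20 for the enzymes of the cytosol and 16 for those of the mitochondrion. A gene was taken when its Ensembl identifier carried a listed symbol, the cytosolic ones also with a trailing 1 (Aars as Aars1), and all 36 were found among the 12591 genes of the deposited expression table. No measured value entered that rule. RNA had been sequenced from 12 dishes of C57 PER2::LUC mouse embryonic fibroblasts, an immortalized line from heterozygous knock-in embryos in which the clock protein PER2 is fused to luciferase. The dishes fell into 4 groups of 3 that were all exposed for 24 h to 3.3 mM HCl, the solvent needed for adenine. CTL dishes received HCl alone, DZ dishes 10 µM deazaneplanocin A (an inhibitor of AHCY, the enzyme that hydrolyses S-adenosylhomocysteine), Adenine dishes 1 mM adenine, and SAM dishes 1 mM S-adenosylmethionine. The study asked how excess SAM and adenine, a base that cells can release from SAM, act on the cell compared with DZ. All dishes came from 1 cell line, so that the p-values below measure the spread between dishes.

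An aminoacyl-tRNA synthetase joins an amino acid to its tRNA, the step that sets which residue a codon adds to a growing protein. Nuclear genes encode a cytosolic and a mitochondrial set, in most cases from separate genes, while Gars1 and Kars1 each serve both compartments. When an amino acid runs short, uncharged tRNA activates the kinase GCN2, translation of the transcription factor ATF4 increases, and ATF4 is known to raise many cytosolic synthetase genes together with transporters and amino acid biosynthetic enzymes.

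ATF4 binds composite C/EBP-ATF elements, written here as TGATGNAAT, and these letters were searched on both strands from 250 bases before to 50 bases after each gene's annotated start (GRCm39, GENCODE vM39). They were present in 48 of 10948 protein-coding genes of the table (0.438%), in 3 of the 20 cytosolic synthetase genes, and in 0 of the 16 mitochondrial ones. Of these, the matches in Gars1 and Iars1 are printed here to show the full element. Each is given on the strand of its gene with the matched letters in capitals, which read as the reverse complement of the search term.
Gars1, chr6:55014945-55014973, plus strand, first matched base at position 12 of the transcript: tggctgcgctATTTCATCAtgcaccgggc
Iars1, chr13:49835602-49835630, plus strand, first matched base at position 37 of the transcript: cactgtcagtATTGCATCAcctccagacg

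The 8 leading letters alone (TGATGNAA), a search added after the data had been seen that also finds every match of the full element, were present in 251 of the 10948 genes (2.29%). They were present in 5 of the 20 cytosolic genes, with Cars1 and Tars1 in addition to the 3 with the full element, and in 0 of the 16 mitochondrial genes. The additional windows, on the strand of the gene, were as follows.
Cars1, chr7:143153783-143153810, minus strand, first matched base at position 28 of the transcript: ggcgccgcggTTGCATCAgattctggaa
Tars1, chr15:11399742-11399769, minus strand, first matched base 8 bases before the start: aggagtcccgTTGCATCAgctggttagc
Gars1, Iars1, Cars1, and Tars1 are commonly described ATF4 targets. Of the 12 cytosolic genes so described, 3 had the full element and 5 the 8 letters, and of the other 8 cytosolic genes 0 had either. Wars1, Lars1, Eprs1, Sars1, and Nars1 are among the 12 and had no match. A match is a description of letters and does not show binding.

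Between 45649534 and 56789090 reads on listed genes were recovered for each library, and no listed gene had fewer than 46 reads in any library. Values are given as log2 CPM, a library-size-normalized scale on which a difference of 1 is a doubling. Of 12 fibroblast markers 11 were listed (summed level 23221 to 23664 CPM in CTL, 29035 to 29690 under DZ, 26296 to 28758 under adenine, and 17842 to 19211 under SAM), with Fap missing. Fn1, the most abundant of them in CTL at 13.56 log2 CPM, stood at 11.99 under SAM. It was the 1 marker called as lower under SAM (limma, false discovery rate under 0.01), while 10 of the 11 were higher. Of all genes 35.7% were lower and 33.7% higher. No listed epithelial, endothelial, or muscle marker was present. Of 7 leukocyte markers Cd68 alone was listed, at 3.03 to 4.0 CPM in CTL, 2.73 to 3.78 under DZ, 10.8 to 12.4 under adenine, and 15.6 to 17.7 under SAM, and Ptprc was not. Of 3 neural markers Tubb3 alone was listed, at 6.74 to 7.81, 6.56 to 6.91, 13.6 to 14.8, and 4.69 to 5.42 CPM in the same order. The part of these shifts in the results below was not tested.

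In the CTL dishes the cytosolic genes were far more abundant than the mitochondrial ones. Per kilobase of canonical transcript, cytosolic levels in CTL ran from 32.8 CPM for Cars1 to 269 CPM for Nars1, the asparaginyl enzyme. Mitochondrial levels ran from 1.24 CPM per kilobase for Mars2 to 47.1 for Lars2, the leucyl enzyme, and Lars2 was the only mitochondrial gene above the lowest cytosolic one. Under SAM the order within the cytosolic set changed: Vars1, the valyl enzyme, went from rank 7 of 20 in CTL (103 CPM per kilobase) to rank 1 (116), and Nars1 went from rank 1 to rank 3 (87.5).

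The summed level of the cytosolic genes was 6917 to 7022 CPM in CTL, 7915 to 7980 under DZ, 5578 to 5763 under adenine, and 3371 to 3401 under SAM. Thus the 4 groups did not overlap, and SAM dishes carried the least cytosolic synthetase RNA. The mitochondrial genes summed to 517 to 524 CPM in CTL, 481 to 490 under DZ, 410 to 427 under adenine, and 438 to 467 under SAM. Lars2 was the most abundant of them, at 7.53 log2 CPM in CTL, 6.92 under DZ, 6.41 under adenine, and 6.71 under SAM. Lars2 therefore weighs most in these sums. Under DZ the sum was below CTL, while the mean log2 CPM of the 16 genes was 4.45 against 4.38 in CTL. The mean log2 CPM of the cytosolic genes stood above that of the mitochondrial genes by 3.65 ± 0.03 (SD, n = 3) in CTL, 3.74 ± 0.01 under DZ, 3.43 ± 0.03 under adenine, and 2.79 ± 0.03 under SAM. This difference is taken within each library and does not depend on how libraries were scaled to each other. In RNA from whole dishes, fewer cells of a type and less RNA per cell cannot be told apart.

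**Figure D1:**
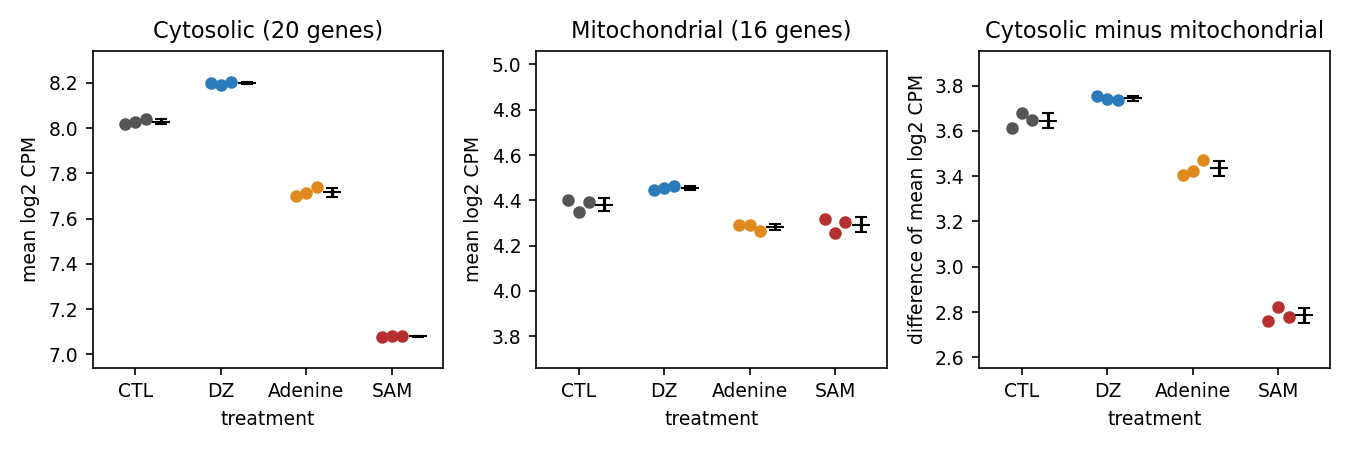
Mean log2 CPM of the 20 cytosolic genes (left) and the 16 mitochondrial genes (middle), and their difference (right), in every dish. Points are dishes, bars show the mean and SD of 3 dishes, and the 3 axes span the same range. The cytosolic mean was 7.08 in all 3 SAM dishes against 8.02 to 8.04 in CTL, while the mitochondrial mean stayed between 4.26 and 4.47 in all 12 dishes.

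SAM lowered most cytosolic synthetase genes. Compared with CTL, 17 of the 20 were lower, 1 was higher, and 2 did not pass (limma, false discovery rate under 0.01 over all 12591 genes, a rule by which 69.3% of all genes were called, 33.7% as higher and 35.7% as lower). The median log2 difference of the 20 genes was -1.08, against -0.02 for all genes, and 12 of them were below -1. The genes furthest from CTL were the tryptophanyl, leucyl, and glutamyl-prolyl enzymes.

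Wars1 encodes the tryptophanyl enzyme, which interferon is known to induce. For Wars1, the CTL dishes stood at 7.56, 7.47, and 7.55 log2 CPM, compared with 7.86, 7.80, and 7.85 under DZ, 6.52, 6.54, and 6.64 under adenine, and 5.63, 5.58, and 5.61 under SAM. The 4 groups did not overlap, with SAM lowest and DZ highest. Wars1 was 3.79-fold lower under SAM than in CTL (log2 difference -1.92, SE 0.036, adjusted p = 7.99e-16 from limma). Lars1 encodes the leucyl enzyme, which also serves as a leucine sensor for mTORC1. The level of Lars1 was 8.65, 8.70, and 8.70 log2 CPM in CTL, 8.58, 8.49, and 8.47 under DZ, 8.21, 8.26, and 8.29 under adenine, and 6.99, 7.02, and 6.93 under SAM. Its CTL dishes were the highest of all, and the SAM dishes were 3.25-fold below them (log2 difference -1.70, SE 0.035, adjusted p = 1.99e-15 from limma). Eprs1 encodes 1 protein with both a glutamyl and a prolyl enzyme. Eprs1 had 8.84, 8.91, and 8.83 log2 CPM in the CTL dishes, 8.85, 8.86, and 8.82 under DZ, 8.38, 8.48, and 8.48 under adenine, and 7.21, 7.17, and 7.09 under SAM. CTL and DZ dishes overlapped, adenine dishes lay below them, and SAM dishes lay lowest, 3.25-fold below CTL (log2 difference -1.70, SE 0.036, adjusted p = 2.54e-15 from limma).

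Sars1, the seryl enzyme, and Nars1 were lower under SAM by similar amounts. For Sars1, the CTL dishes stood at 9.61, 9.60, and 9.63 log2 CPM, compared with 9.80, 9.74, and 9.74 under DZ, 8.92, 8.91, and 8.94 under adenine, and 7.92, 7.94, and 7.96 under SAM. SAM stood 3.19-fold below CTL (log2 difference -1.67, SE 0.026, adjusted p = 1.06e-16 from limma), and no groups overlapped. Nars1 had a log2 difference of -1.62 under SAM. Gars1 is the single glycyl gene for both compartments, and the element shown above lies just after its annotated start. The level of Gars1 was 8.96, 8.99, and 9.0 log2 CPM in CTL, 9.28, 9.31, and 9.31 under DZ, 8.63, 8.66, and 8.69 under adenine, and 7.63, 7.62, and 7.65 under SAM. SAM dishes were 2.54-fold below CTL (log2 difference -1.35, SE 0.025, adjusted p = 6.98e-16 from limma), again with no overlap between any groups. Aars1 encodes the alanyl enzyme. Aars1 had 10.0, 9.97, and 10.02 log2 CPM in the CTL dishes, 10.21, 10.20, and 10.20 under DZ, 9.78, 9.79, and 9.84 under adenine, and 8.74, 8.69, and 8.69 under SAM. The order of its groups was DZ, CTL, adenine, and SAM without overlap, and the SAM difference was 2.44-fold (log2 difference -1.29, SE 0.027, adjusted p = 2.84e-15 from limma). Yars1, Iars1, Cars1, Tars1, and Rars1 had log2 differences from -1.15 to -0.91 under SAM.

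The cytosolic phenylalanyl enzyme is built from 2 kinds of subunit, encoded by Farsa and Farsb. For Farsb, the CTL dishes stood at 6.40, 6.54, and 6.52 log2 CPM, compared with 6.53, 6.46, and 6.48 under DZ, 5.70, 5.75, and 5.76 under adenine, and 5.37, 5.42, and 5.38 under SAM. Farsb, the beta subunit, was lower under SAM (log2 difference -1.10, SE 0.040, adjusted p = 8.95e-13 from limma), and its DZ dishes overlapped CTL. Farsa, the alpha subunit, had 6.47, 6.32, and 6.40 log2 CPM in CTL and 6.40, 6.38, and 6.41 under SAM, which overlapped, with a log2 difference of 0.00 (95% interval -0.09 to 0.09). No difference of Farsa was detectable under SAM at this spread between dishes.

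Methionine is the amino acid from which SAM is made, and Mars1 encodes the cytosolic methionyl enzyme, which charges both initiator and elongator tRNA. The level of Mars1 was 7.76, 7.76, and 7.73 log2 CPM in CTL, 8.22, 8.23, and 8.22 under DZ, 8.08, 8.05, and 8.11 under adenine, and 7.56, 7.50, and 7.55 under SAM. Mars1 dishes were ordered DZ, adenine, CTL, and SAM without overlap. Its difference under SAM was small beside those of the genes above, 1.16-fold below CTL (log2 difference -0.21, SE 0.026, adjusted p = 1.83e-06 from limma), while under adenine it rose 1.26-fold (log2 difference 0.33, SE 0.026, adjusted p = 1.56e-08 from limma).

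Vars1 was the 1 cytosolic gene that rose under SAM as deposited, and with plain read totals Hars1 passed too, at a log2 difference of 0.14. Vars1 had 8.77, 8.76, and 8.78 log2 CPM in the CTL dishes, 8.71, 8.81, and 8.83 under DZ, 8.85, 8.84, and 8.85 under adenine, and 8.98, 8.93, and 8.92 under SAM. The SAM dishes were above all other dishes, 1.13-fold over CTL (log2 difference 0.17, SE 0.030, adjusted p = 9.47e-05 from limma). Hars1, the histidyl enzyme, had 6.07, 6.06, and 6.14 log2 CPM in CTL and 6.10, 6.06, and 6.15 under SAM. These dishes overlapped, and the log2 difference was 0.02 (95% interval -0.06 to 0.10, adjusted p = 0.699 from limma). Kars1 is the single lysyl gene for cytosol and mitochondrion. For Kars1, the CTL dishes stood at 8.27, 8.27, and 8.31 log2 CPM, compared with 8.28, 8.30, and 8.31 under DZ, 7.98, 8.01, and 8.0 under adenine, and 7.94, 7.91, and 7.97 under SAM. SAM dishes lay lowest, 1.27-fold below CTL (log2 difference -0.34, SE 0.026, adjusted p = 7.04e-09 from limma), and CTL and DZ dishes overlapped. Qars1, the glutaminyl enzyme, was also lower under SAM, with a log2 difference of -0.61.

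**Figure D2:**
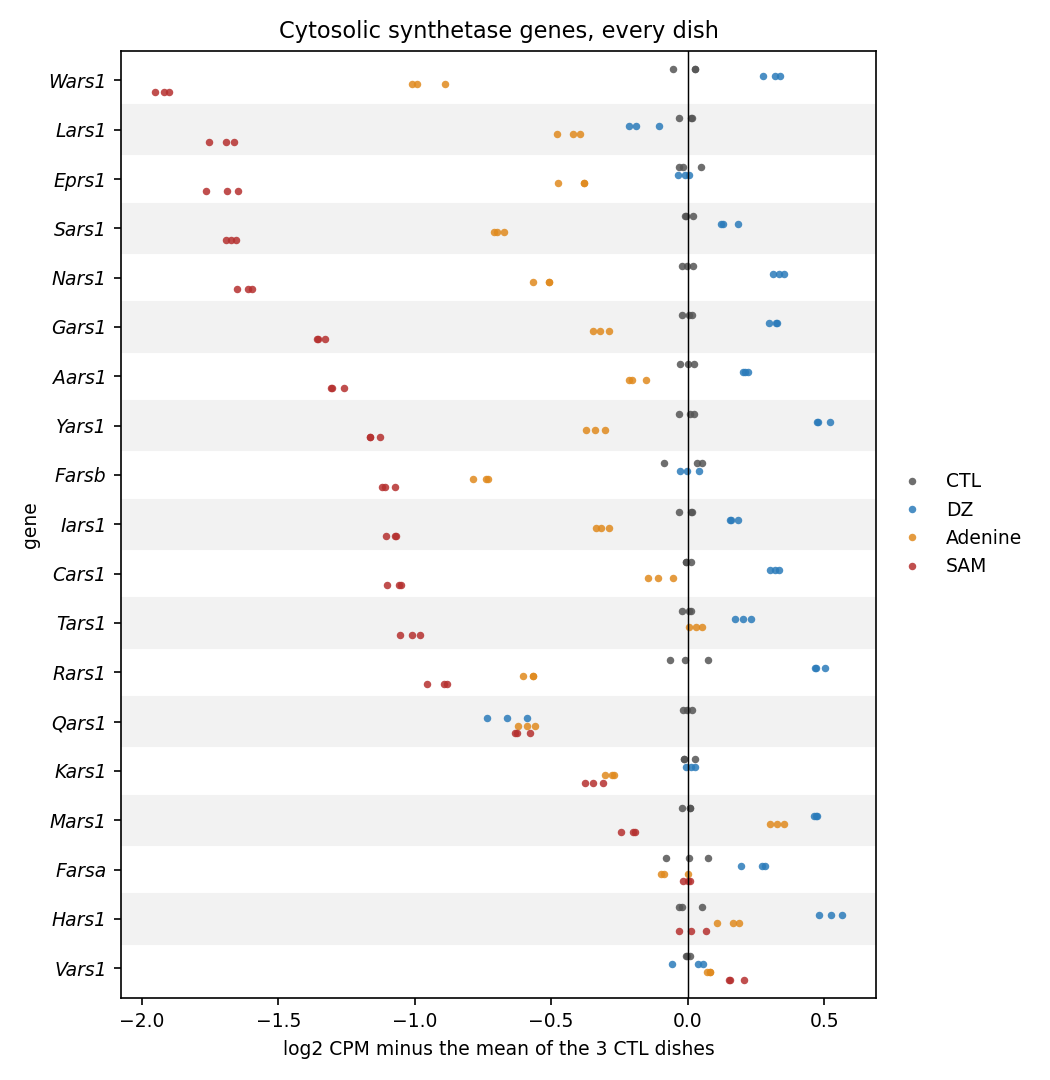
Log2 CPM of each cytosolic gene named, in each dish, as the difference from the mean of the 3 CTL dishes, ordered by the SAM difference. Each point is a dish, with colors for CTL, DZ, Adenine, and SAM. The SAM dishes of Wars1, Lars1, Eprs1, Sars1, and Nars1 lie below -1.5, those of Vars1 lie above 0, and the DZ dishes of most genes lie to the right of CTL.

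The cytosolic set was split by a list of commonly described ATF4 targets (Aars1, Cars1, Eprs1, Gars1, Iars1, Lars1, Mars1, Nars1, Sars1, Tars1, Wars1, and Yars1). All 12 of these were lower under SAM, with a median log2 difference of -1.32, and 11 of them were below -1. Of the other 8 cytosolic genes, 5 were lower, 1 was higher, and 2 did not pass, with a median of -0.36 and only Farsb below -1. The shares lower were 100% and 62.5%, beside 35.7% of all genes, and the shares called 100% and 75.0%, beside 69.3%. Of all 12591 genes, 711 were below -1 under SAM. Within each library, the mean log2 CPM of the 12 stood above that of the 8 by 1.54 ± 0.01 (SD, n = 3) in CTL, 1.69 ± 0.03 under DZ, 1.50 ± 0.03 under adenine, and 0.62 ± 0.02 under SAM. The list was drawn up with earlier results of these data known, and the difference between the lists was not tested.

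Membership of the multisynthetase complex, the assembly of synthetases and AIMP scaffold proteins in the cytosol, gave a smaller contrast. Of its 8 genes, among them Eprs1, Iars1, Lars1, Mars1, Qars1, Rars1, and Kars1, all 8 were lower under SAM, with a median of -0.76, and of the 12 other cytosolic genes 9 were lower and 1 was higher, with a median of -1.13. Under DZ the medians were 0.01 in the complex (3 higher and 2 lower) and 0.28 outside it (10 higher and 0 lower). In the complex and outside it, 100% and 75.0% were lower under SAM, beside 35.7% of all genes. Higher under DZ were 37.5% and 83.3%, beside 22.6% of all genes. The shares called were 100% and 83.3% under SAM, beside 69.3%, and 62.5% and 83.3% under DZ, beside 45.9%. By the fold of the catalytic domain, the medians under SAM were -1.08 for the 10 class I genes and -1.06 for the 10 class II genes. Eprs1, which holds a domain of each class, was counted in class I.

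Adenine lowered the cytosolic genes less. Compared with CTL, 15 of the 20 were lower, 2 were higher (Mars1 and Hars1), and 3 did not pass (Farsa, Tars1, and Vars1), where 61.6% of all genes were called, 30.6% as higher and 31.0% as lower. With plain read totals 4 were higher and 14 lower, and with quantile normalization 4 and 13. The median log2 difference was -0.32, against 0.00 for all genes, and no cytosolic gene was below -1. Wars1 was again lowest, 1.95-fold below CTL (log2 difference -0.96, SE 0.036, adjusted p = 2.78e-12 from limma). Farsb was 1.68-fold below CTL (log2 difference -0.75, SE 0.040, adjusted p = 1.24e-10 from limma) and Sars1 1.62-fold (log2 difference -0.69, SE 0.026, adjusted p = 2.58e-12 from limma). Hars1 stood at 6.25, 6.20, and 6.28 log2 CPM under adenine, above all CTL dishes (log2 difference 0.16, SE 0.038, adjusted p = 0.00178 from limma). That call was lost without the third adenine dish (log2 difference 0.14, adjusted p = 0.0107).
The calls for Aars1 depended on the scaling: its log2 difference under adenine was -0.19 as deposited and -0.03 with quantile normalization (adjusted p = 0.305 from limma). Scaling libraries by plain read totals or by quantiles also called Vars1 as higher, at 0.14 and 0.20, where the deposited values gave 0.08 (adjusted p = 0.0321 from limma), and Tars1 as higher, at 0.09 and 0.18.

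DZ raised most cytosolic genes. Compared with CTL, 13 of the 20 were higher, 2 were lower (Lars1 and Qars1), and 5 did not pass (among them Eprs1, Farsb, Kars1, and Vars1), where 45.9% of all genes were called, 22.6% as higher and 23.4% as lower. The median log2 difference was 0.21, against -0.01 for all genes, and the differences were small: Hars1, the highest, stood at 6.57, 6.61, and 6.65 log2 CPM under DZ, 1.44-fold over CTL (log2 difference 0.52, SE 0.038, adjusted p = 2.08e-08 from limma). Yars1, the tyrosyl enzyme, came next. The level of Yars1 was 7.66, 7.62, and 7.68 log2 CPM in CTL, 8.13, 8.13, and 8.17 under DZ, 7.32, 7.28, and 7.35 under adenine, and 6.49, 6.53, and 6.49 under SAM. Its DZ dishes were 1.40-fold over CTL and all groups were apart (log2 difference 0.49, SE 0.029, adjusted p = 2.33e-09 from limma). Rars1, the arginyl enzyme, followed. Rars1 had 7.55, 7.69, and 7.61 log2 CPM in the CTL dishes, 8.12, 8.08, and 8.08 under DZ, 7.01, 7.05, and 7.05 under adenine, and 6.66, 6.73, and 6.72 under SAM. DZ dishes were 1.39-fold over CTL (log2 difference 0.48, SE 0.034, adjusted p = 1.98e-08 from limma) and SAM dishes lowest. Mars1 was 1.38-fold over CTL (log2 difference 0.47, SE 0.026, adjusted p = 1.3e-09 from limma).

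Of the 20 cytosolic genes, Qars1 was furthest below CTL under DZ. For Qars1, the CTL dishes stood at 6.95, 6.93, and 6.97 log2 CPM, compared with 6.29, 6.22, and 6.36 under DZ, 6.36, 6.39, and 6.33 under adenine, and 6.32, 6.33, and 6.37 under SAM. All 9 treated dishes were below all CTL dishes, as they were for Lars1, and for Qars1 the 3 treatments overlapped one another. The glutaminyl gene was 1.58-fold below CTL under DZ (log2 difference -0.66, SE 0.036, adjusted p = 1.3e-09 from limma), and its log2 differences under adenine and SAM were -0.59 and -0.61. Lars1 was lower under DZ by 0.17 (adjusted p = 7.10e-04 from limma), and with quantile normalization its difference was -0.11 and did not pass (adjusted p = 0.0164).

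Counting each gene's calls across the 3 treatments, which share the CTL dishes, 9 cytosolic genes were higher under DZ and lower under both adenine and SAM (Aars1, Cars1, Gars1, Iars1, Nars1, Rars1, Sars1, Wars1, and Yars1). Of all 12591 genes 3.90% had this pattern. Lars1 and Qars1 were lower in all 3, as were 1379 of all 12591 genes. Eprs1, Farsb, and Kars1 were lower under adenine and SAM and did not pass under DZ, as did 11.2% of all genes. In the mitochondrial set, Mars2 and Nars2 had the first of these patterns, and Lars2 and Wars2 the second. The DZ call of Nars2 (log2 difference 0.28, adjusted p = 6.48e-03 from limma) was lost without the second CTL dish or without any 1 of the DZ dishes (adjusted p from 0.0102 to 0.0366). The adenine call of Cars1 was lost without any 1 of the CTL dishes, without the first or the second adenine dish (adjusted p from 0.0116 to 0.0293 from limma), and with plain read totals or quantile normalization (adjusted p = 0.215 and 0.149).

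The mitochondrial genes had no common direction. Under SAM 7 of the 16 were lower, 5 were higher, and 4 did not pass, with a median log2 difference of -0.06 and none below -1. Under adenine 8 were lower, 4 were higher, and 4 did not pass, with a median of -0.18. Under DZ 5 were higher, 4 were lower, and 7 did not pass, with a median of 0.11. The DZ count rested on single dishes, since 4 genes were called without the first CTL dish or without the second DZ dish, and 5 without the second CTL dish or without the first DZ dish. With plain read totals 5 were higher and 1 was lower under DZ. The shares called were 75.0% under SAM and under adenine and 56.25% under DZ, beside 69.3%, 61.6%, and 45.9% of all genes. These genes held 2.31 to 7.57 log2 CPM, and the SDs of their groups reached 0.15. Vars2 and Yars2, the valyl and tyrosyl enzymes, were higher under DZ, with log2 differences of 0.15 and 0.25. Both DZ calls were lost without the first or the second CTL dish or without the second or the third DZ dish (adjusted p from 0.0112 to 0.0378 from limma). Under SAM neither passed as deposited, and Vars2 passed as higher with plain read totals (0.24) or without the third CTL or the third SAM dish. Yars2 was lower under adenine (-0.29), a call lost without the third CTL dish (adjusted p = 0.0114 from limma) or the third adenine dish (adjusted p = 0.0117). Fars2, the phenylalanyl enzyme, was lower under adenine (-0.20), a call lost with plain read totals, without the first or the second CTL dish, or without the second or the third adenine dish (adjusted p from 0.0146 to 0.0453 from limma).

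Tars2, the threonyl enzyme of the mitochondrion, was the 1 synthetase gene that rose under all 3 treatments. The level of Tars2 was 4.62, 4.55, and 4.57 log2 CPM in CTL, 5.41, 5.44, and 5.47 under DZ, 5.16, 5.11, and 5.12 under adenine, and 5.28, 5.37, and 5.34 under SAM. No groups overlapped, and CTL was lowest. Tars2 was 1.82-fold over CTL under DZ (log2 difference 0.86, SE 0.041, adjusted p = 2.64e-10 from limma), 1.47-fold under adenine (log2 difference 0.55, SE 0.041, adjusted p = 7.22e-09 from limma), and 1.68-fold under SAM (log2 difference 0.75, SE 0.041, adjusted p = 1.2e-10 from limma). Tars1, its cytosolic counterpart, was 2.02-fold lower under SAM (log2 difference -1.01, SE 0.028, adjusted p = 3.95e-14 from limma).

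Lars2 and Wars2, the mitochondrial leucyl and tryptophanyl enzymes, fell under all 3 treatments. Lars2 had 7.54, 7.57, and 7.49 log2 CPM in the CTL dishes, 6.94, 6.99, and 6.82 under DZ, 6.50, 6.40, and 6.32 under adenine, and 6.85, 6.56, and 6.71 under SAM. CTL dishes were highest, adenine dishes were lowest, and DZ and SAM dishes overlapped. Lars2 was 2.18-fold below CTL under adenine (log2 difference -1.13, SE 0.065, adjusted p = 3.31e-10 from limma), the 1 mitochondrial difference beyond a doubling, and 1.77-fold below it under SAM (log2 difference -0.83, SE 0.065, adjusted p = 1.04e-08 from limma). For Wars2, the CTL dishes stood at 3.81, 3.78, and 3.62 log2 CPM, compared with 3.43, 3.56, and 3.39 under DZ, 3.20, 3.25, and 3.26 under adenine, and 2.97, 2.91, and 2.75 under SAM. The 4 groups were apart in the order CTL, DZ, adenine, and SAM. Wars2 was 1.81-fold below CTL under SAM (log2 difference -0.86, SE 0.079, adjusted p = 6.73e-08 from limma). Its difference under DZ was -0.28 (adjusted p = 7.33e-03 from limma) and did not pass without the first or the second CTL dish or without the first or the third DZ dish (adjusted p from 0.0244 to 0.0345), nor with plain read totals or quantile normalization (adjusted p = 0.0125 and 0.0119).

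Nars2, Mars2, and Rars2, the asparaginyl, methionyl, and arginyl enzymes, were lower under SAM. The level of Nars2 was 3.19, 3.0, and 3.19 log2 CPM in CTL, 3.44, 3.36, and 3.45 under DZ, 2.76, 2.86, and 2.73 under adenine, and 2.41, 2.31, and 2.40 under SAM. SAM dishes were 1.69-fold below CTL (log2 difference -0.76, SE 0.079, adjusted p = 3.14e-07 from limma) without overlap between any groups. Mars2 had 3.88, 3.84, and 3.68 log2 CPM in the CTL dishes, 4.43, 4.32, and 4.34 under DZ, 3.31, 3.34, and 3.44 under adenine, and 3.27, 3.02, and 3.21 under SAM. Mars2 rose 1.47-fold under DZ (log2 difference 0.56, SE 0.077, adjusted p = 2e-05 from limma) and was 1.55-fold lower under SAM (log2 difference -0.64, SE 0.077, adjusted p = 1.92e-06 from limma), with all groups apart. For Rars2, the CTL dishes stood at 4.53, 4.57, and 4.52 log2 CPM, compared with 4.67, 4.55, and 4.63 under DZ, 4.39, 4.39, and 4.15 under adenine, and 3.94, 3.81, and 3.92 under SAM. Rars2 was 1.57-fold lower under SAM (log2 difference -0.65, SE 0.066, adjusted p = 2.57e-07 from limma), and CTL and DZ dishes overlapped. Its smaller difference under adenine (-0.23, adjusted p = 6.36e-03 from limma) did not pass without any 1 of the CTL dishes or without the third adenine dish, nor with plain read totals (-0.17, adjusted p = 0.0355). Ears2, which charges glutamate and takes part in the indirect route to glutaminyl-tRNA, and Iars2 were also lower under SAM, with log2 differences of -0.35 and -0.22. Iars2 was at -0.09 under SAM with plain read totals and did not pass (adjusted p = 0.024 from limma).

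Cars2, Sars2, Aars2, and Pars2 were higher under SAM. The level of Cars2 was 4.91, 4.81, and 4.93 log2 CPM in CTL, 4.64, 4.70, and 4.75 under DZ, 5.43, 5.41, and 5.39 under adenine, and 5.56, 5.45, and 5.56 under SAM. Cars2, the cysteinyl enzyme, was 1.56-fold over CTL under SAM (log2 difference 0.64, SE 0.047, adjusted p = 5.39e-09 from limma) and 1.44-fold under adenine, and no groups overlapped. Its DZ call (-0.18, adjusted p = 3.90e-03 from limma) was lost without the first or the third CTL dish or without the first or the second DZ dish (adjusted p from 0.0113 to 0.0204), and with plain read totals (adjusted p = 0.0106). Sars2, the seryl enzyme, rose in the same treatments. Sars2 had 2.75, 2.72, and 2.95 log2 CPM in the CTL dishes, 3.07, 3.04, and 2.99 under DZ, 3.32, 3.24, and 3.23 under adenine, and 3.35, 3.31, and 3.52 under SAM. SAM and adenine dishes overlapped and both lay above DZ and CTL, with SAM 1.50-fold over CTL (log2 difference 0.59, SE 0.081, adjusted p = 7.73e-06 from limma). Aars2, the alanyl enzyme, passed under SAM and not under adenine or DZ. For Aars2, the CTL dishes stood at 4.36, 4.19, and 4.26 log2 CPM, compared with 4.03, 3.95, and 4.21 under DZ, 4.21, 4.20, and 4.25 under adenine, and 4.79, 4.69, and 4.78 under SAM. All SAM dishes lay above all others, 1.40-fold over CTL (log2 difference 0.49, SE 0.067, adjusted p = 7.96e-06 from limma). Pars2, the prolyl enzyme, had log2 differences of 0.39 under adenine and 0.44 under SAM, and under adenine it did not pass with quantile normalization (0.28, adjusted p = 0.0109 from limma). Hars2, the histidyl enzyme, passed under DZ and not under adenine or SAM. The level of Hars2 was 4.91, 4.71, and 4.82 log2 CPM in CTL, 4.64, 4.53, and 4.68 under DZ, 4.68, 4.61, and 4.65 under adenine, and 4.77, 4.72, and 4.70 under SAM. SAM and CTL dishes overlapped, and the DZ difference of -0.19 (adjusted p = 9.42e-03 from limma) did not pass without the first or the third CTL dish or without the first or the second DZ dish, nor with plain read totals, no variance trend, voom, or only the 2 groups compared (adjusted p from 0.0103 to 0.0564). In the other direction, Aars2 passed under DZ without the third DZ dish (-0.28), Sars2 passed under DZ without the third CTL dish (0.30), and Hars2 passed under adenine without the second CTL dish (-0.22).

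**Figure D3:**
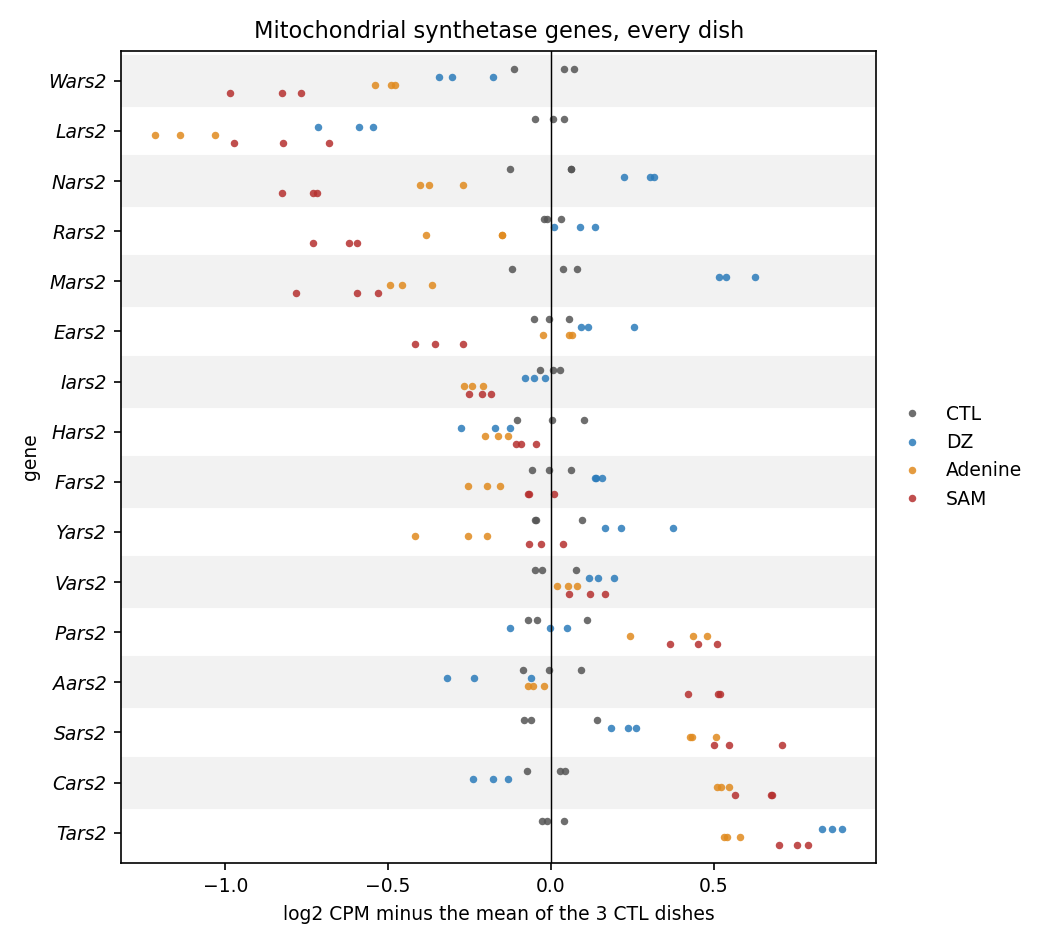
Log2 CPM of each mitochondrial gene in each dish, as the difference from the mean of the 3 CTL dishes, ordered by the SAM difference. Each point is a dish, with colors for CTL, DZ, Adenine, and SAM. All treated dishes of Tars2 lie to the right of CTL and all those of Lars2 and Wars2 to the left, with the adenine dishes of Lars2 at a mean of -1.13.

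Some of these values may hold reads of other genes. The libraries were stranded, but the strand setting used in counting was not found in the sources used here. Runs of 76 bases, the read length, were compared between each member's canonical transcript and all other annotated transcripts, on either strand. For 18 of the 36 genes no run was shared, among them Lars2, Wars1, Nars1, Tars1, and Tars2. For 5 genes over 20% of runs were shared, in all but Aars1 with a gene on the opposite strand. Cars2 shared 50.4% with Naxd, which differed from CTL by -0.34 under DZ, -0.35 under adenine, and -0.78 under SAM. In the same order Cars2 differed by -0.18, 0.53, and 0.64. Iars2 shared 41.5% with Rab3gap2, which differed from CTL by -0.04 under DZ, -0.21 under adenine, and -0.18 under SAM, where Iars2 differed by -0.05, -0.24, and -0.22. Yars2 shared 48.7% with Dnm1l, which differed by 0.00, -0.06, and -0.19, where Yars2 differed by 0.25, -0.29, and -0.02. Sars2 shared 6.92% with Mrps12, and under SAM these differed from CTL by 0.59 and 0.62. The part of shared reads in these values was not tested. Mars2 shared 33.4% with Boll, and Aars1 shared 21.9% with Exosc6 on its own strand. Levels per kilobase of these 5 genes are therefore uncertain. Hars1 and Hars2, neighbors with opposite orientation on chromosome 18, shared 6.27% of the runs of Hars1.

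SAM and adenine were given at the same concentration and for the same time, so their dishes were compared directly. Adenine is the purine base within the SAM molecule, to which SAM adds a ribose and a methionine moiety. Of the 20 cytosolic genes, 16 were lower under SAM than under adenine, 0 were higher, and 4 did not pass, where 42.7% of all genes were called, 20.8% as higher and 22.0% as lower. The median log2 difference was -0.79, against 0.00 for all genes. Of the 12 described ATF4 targets all 12 were lower, with a median of -1.0, and of the other 8 genes 4 were lower, with a median of -0.10. Eprs1 (log2 difference -1.29, SE 0.036, adjusted p = 2.46e-13 from limma), Lars1 (log2 difference -1.27, SE 0.035, adjusted p = 2.34e-13 from limma), and Aars1 (log2 difference -1.10, SE 0.027, adjusted p = 7.98e-14 from limma) differed most.

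For the 4 cytosolic genes that did not pass, the log2 difference between SAM and adenine was -0.06 for Kars1 (95% interval -0.12 to 0.00), -0.02 for Qars1 (-0.10 to 0.06), 0.06 for Farsa (-0.03 to 0.15), and 0.09 for Vars1 (0.03 to 0.16). With plain read totals Vars1 was called as higher, at 0.15, and with quantile normalization at 0.23. The call of Hars1 (-0.14, adjusted p = 5.91e-03 from limma) was lost without the first or the third adenine dish and without the first or the second SAM dish (adjusted p from 0.0172 to 0.0308). It was also lost with plain read totals (-0.08, adjusted p = 0.0942), quantile normalization, no variance trend, or only the 2 groups compared (adjusted p from 0.0134 to 0.0144). In the mitochondrial set 4 were lower under SAM than under adenine (Rars2, Nars2, Ears2, and Wars2), 4 were higher (Aars2, Lars2, Yars2, and Tars2), and 8 did not pass, with a median of 0.07. Aars2 was 1.45-fold higher under SAM than under adenine (log2 difference 0.53, SE 0.067, adjusted p = 9.33e-06 from limma), and Lars2 1.23-fold (log2 difference 0.30, SE 0.065, adjusted p = 0.00105 from limma). The call of Yars2 (0.27) was lost without the third adenine dish or without the first or the third SAM dish (adjusted p from 0.0105 to 0.0267 from limma). Rars2 was lowest, 1.34-fold below adenine (log2 difference -0.42, SE 0.066, adjusted p = 7.99e-05 from limma). DZ was given at another concentration and was not compared with either.

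**Figure D4:**
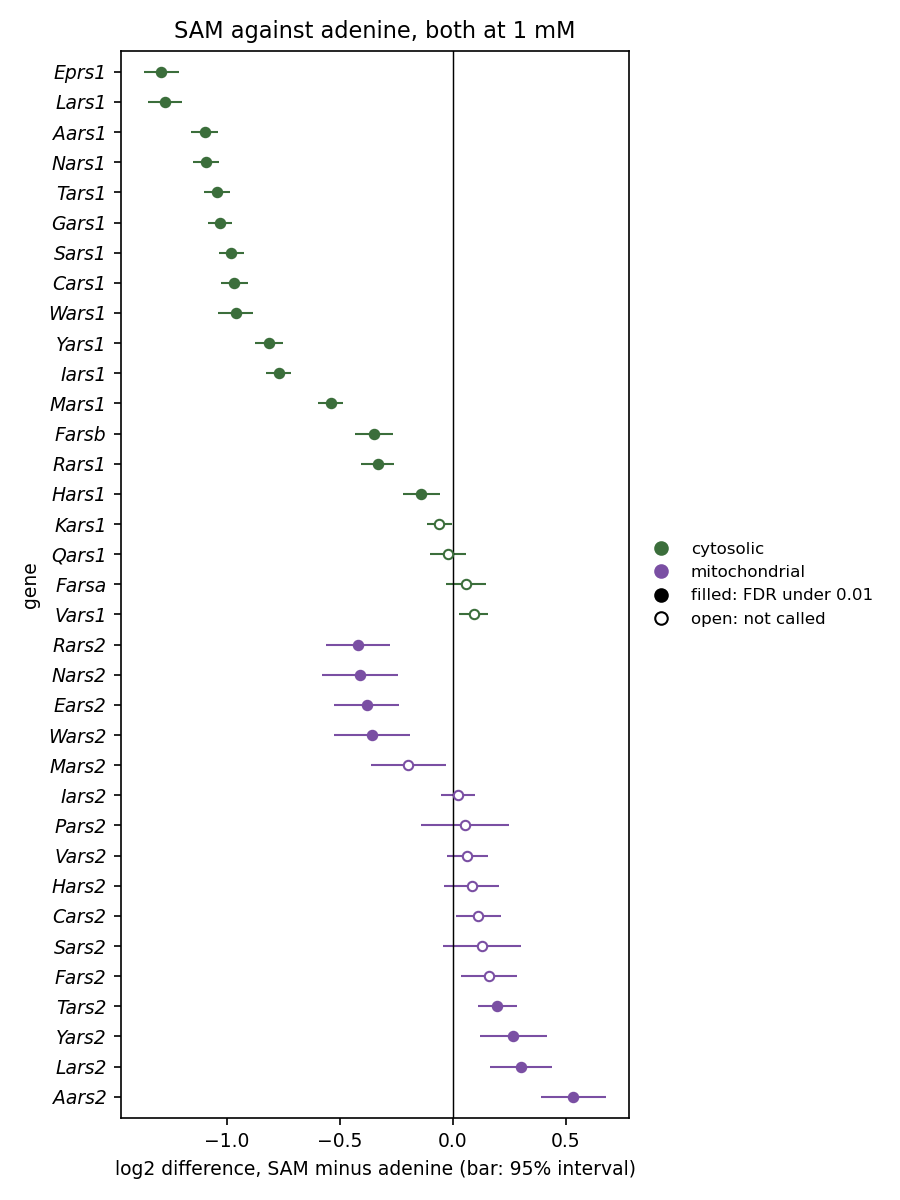
Log2 difference between the SAM and the adenine dishes for each gene named, with 95% intervals from limma. Green marks cytosolic and purple mitochondrial genes, filled points passed a false discovery rate of 0.01, and open points did not. The filled cytosolic points all lie below 0, from Eprs1 at -1.29 to Hars1 at -0.14, while 4 filled mitochondrial points lie below and 4 above.

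For 14 amino acids a cytosolic gene could be set against a mitochondrial gene within each library. The shift of this difference from CTL was below 0 for 10 of the 14 under SAM, 9 under adenine, and 4 under DZ, with medians of -0.87, -0.11, and 0.23. The seryl pair moved furthest under SAM. Sars1 exceeded Sars2 by 6.81 ± 0.11 log2 units (SD, n = 3) in CTL and by 4.55 ± 0.10 under SAM, which did not overlap. The alanyl pair went from 5.72 ± 0.08 to 3.95 ± 0.04 and the threonyl pair from 4.40 ± 0.05 to 2.64 ± 0.07. Against these, the methionyl pair went from 3.95 ± 0.09 in CTL to 4.37 ± 0.10 under SAM and to 4.72 ± 0.05 under adenine. Under SAM both genes were lower, Mars2 by more, and under adenine Mars1 was higher and Mars2 lower. The phenylalanyl (taken with Farsa), valyl, and histidyl pairs shifted by 0.04, 0.06, and 0.10 under SAM. Taken with Farsb instead, a choice added after the data had been seen, the phenylalanyl pair shifted by -1.06 under SAM, and 11 of the 14 were below 0, with a median of -0.97.

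Among 16 partner genes of the synthetases, 6 were higher and 6 lower under SAM, 4 higher and 6 lower under adenine, and 3 higher and 3 lower under DZ. The shares called, 75.0%, 62.5%, and 37.5%, stood beside 69.3%, 61.6%, and 45.9% of all genes. Xpot, which exports tRNA from the nucleus, was nearest to the cytosolic enzymes. Xpot had 8.99, 8.97, and 8.97 log2 CPM in the CTL dishes, 9.10, 9.07, and 9.04 under DZ, 8.68, 8.75, and 8.75 under adenine, and 7.78, 7.83, and 7.74 under SAM. SAM dishes were 2.29-fold below CTL (log2 difference -1.19, SE 0.030, adjusted p = 1.57e-14 from limma) and no groups overlapped. Aimp1, a scaffold of the multisynthetase complex, was lower in all 3 treatments. For Aimp1, the CTL dishes stood at 6.62, 6.63, and 6.64 log2 CPM, compared with 6.30, 6.26, and 6.19 under DZ, 5.96, 5.88, and 5.97 under adenine, and 5.71, 5.69, and 5.81 under SAM. It was 1.86-fold below CTL under SAM (log2 difference -0.90, SE 0.041, adjusted p = 1.28e-11 from limma). Gatc, a subunit of the mitochondrial amidotransferase that completes glutaminyl-tRNA, was lower under SAM (log2 difference -0.66, SE 0.050, adjusted p = 7.26e-09 from limma).

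Among 18 genes of amino acid sensing and its feedback, 12 were lower and 1 was higher under SAM, 13 were lower and 1 was higher under adenine, and 9 were higher and 2 were lower under DZ. This made 72.2%, 77.8%, and 61.1% called, beside 69.3%, 61.6%, and 45.9% of all genes. Lower were 66.7% under SAM and 72.2% under adenine, beside 35.7% and 31.0% of all genes. The 1 gene that was higher under SAM and under adenine was Eif2ak4, which encodes GCN2, with log2 differences of 0.52 and 0.22. Atf4 itself was lower under SAM. The level of Atf4 was 9.54, 9.51, and 9.56 log2 CPM in CTL, 9.51, 9.52, and 9.52 under DZ, 9.26, 9.26, and 9.28 under adenine, and 8.45, 8.44, and 8.52 under SAM. CTL and DZ dishes overlapped, and SAM dishes were 2.10-fold below CTL (log2 difference -1.07, SE 0.027, adjusted p = 1.89e-14 from limma). Ddit3, which encodes the ATF4 target CHOP, moved further. Ddit3 had 8.08, 8.09, and 8.10 log2 CPM in the CTL dishes, 8.36, 8.33, and 8.35 under DZ, 7.25, 7.21, and 7.27 under adenine, and 5.15, 5.17, and 5.30 under SAM. It was 7.37-fold below CTL under SAM (log2 difference -2.88, SE 0.036, adjusted p = 8.87e-18 from limma) and 1.80-fold below it under adenine. Atf3 and Ppp1r15a (GADD34), both downstream of the same response, had log2 differences of -3.79 and -2.90 under SAM.

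Among 16 amino acid supply genes known as ATF4 targets, all 16 were lower under SAM, with a median log2 difference of -1.77. Of all genes 69.3% were called under SAM and 35.7% were lower. Under adenine 10 of the 16 were lower and 6 did not pass, with a median of -0.15. The share called under adenine, 62.5%, was near the 61.6% of all genes, while 31.0% of all genes were lower. Under DZ 8 of the 16 were higher and 2 lower, with a median of 0.16. The share called under DZ was 62.5%, beside 45.9% of all genes, with 22.6% of all genes higher and 23.4% lower. Asns, asparagine synthetase, had the group order of the cytosolic enzymes. For Asns, the CTL dishes stood at 8.77, 8.74, and 8.80 log2 CPM, compared with 8.94, 8.97, and 8.99 under DZ, 8.29, 8.27, and 8.35 under adenine, and 6.69, 6.67, and 6.79 under SAM. SAM dishes were 4.15-fold below CTL (log2 difference -2.05, SE 0.035, adjusted p = 2.19e-16 from limma). Slc7a5, a transporter of large neutral amino acids, was 4.74-fold below CTL under SAM and 1.44-fold above it under DZ. Trib3, a pseudokinase that restrains ATF4, fell furthest of the list under SAM, with a log2 difference of -4.05. All 16 supply genes were also lower under SAM than under adenine, with a median of -1.43, where 22.0% of all genes were lower.

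**Figure D5:**
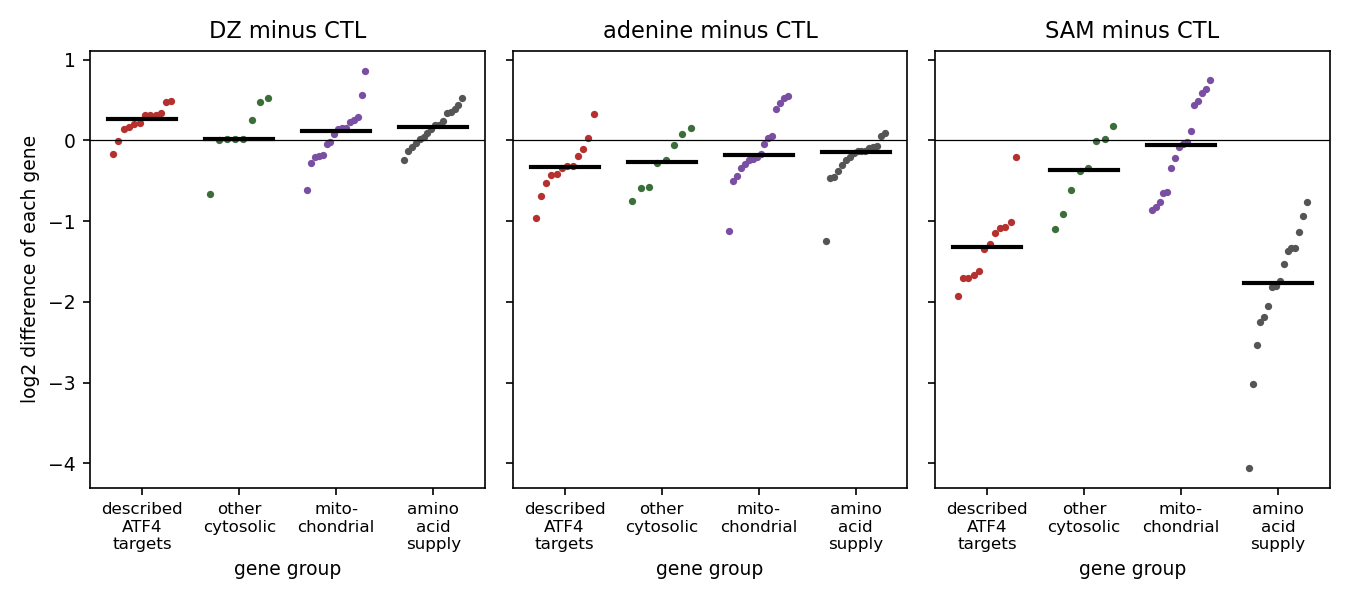
Log2 difference from CTL of each gene under DZ (left), adenine (middle), and SAM (right), for the 12 described ATF4 targets among the cytosolic synthetases, the other 8 cytosolic genes, the 16 mitochondrial genes, and the 16 amino acid supply genes. Each point is a gene and each bar the median of its group. Under SAM the medians were -1.32, -0.36, -0.06, and -1.77.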

How the data were processed

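RNA-seq of poly(A) RNA from 12 dishes was used. Per the study's methods, reads were trimmed with Trimmomatic, aligned with HISAT2 to GRCm39 (annotation GENCODE vM27), and assembled and counted by StringTie. The authors then used edgeR on genes reaching 1 CPM in every library. The versions were not given in the sources used here. The values deposited by the authors are on a log2 scale (CPM after library size normalization, prior count of 2). All 12 columns were used as deposited. Depth was taken from whole reads recovered from these values (100% within 0.01 of a whole number), and intervals of 95% come from the fit.

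A single limma model (3.58.1, R 4.3.3, variance trend, no covariates) was fitted to all 12 libraries and 12591 genes and tested on simulated data. P-values were adjusted by Benjamini-Hochberg over all genes, with a threshold of 0.01. Groups came from the sample titles. Values in every dish are given for up to 3 called genes of each class with the largest difference in each direction and comparison, for Gars1, Kars1, Mars1, and Mars2, and for up to 3 genes of each further list with the smallest adjusted p plus Atf4 and Ddit3. Other genes are named to account for the members, some items are counted but not reported by name here, and Eif2ak4, Naxd, and the other neighbors were chosen after their values were seen. The members and gene lists were chosen with earlier results of these data known. Alternatives were plain read totals, quantile normalization, no variance trend, a filter at 3 log2 CPM, pairs of groups alone, a required difference of 0.5, voom on recovered reads, a false discovery rate of 0.05, a replicate block, and leaving out each dish. Of 12591 identifiers 12575 were matched to GENCODE vM39, from which coordinates and lengths were taken.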

Additional observations from a re-analysis of the deposited data

How the results depend on the processing

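The medians of the cytosolic genes kept their direction under every alternative. With plain read totals, which moved the median of all genes under SAM to 0.11, the cytosolic medians were 0.23 under DZ, -0.25 under adenine, -0.95 under SAM, and -0.73 for SAM against adenine. With quantile normalization they were 0.26, -0.24, -0.98, and -0.77. The mitochondrial medians lie near 0. With plain read totals they were 0.14, -0.12, 0.0596 (a change of sign under SAM), and 0.13. With quantile normalization they were -0.24 under adenine and -0.15 under SAM, and with a filter at 3 log2 CPM (14 genes) 0.10 for SAM against adenine. When a log2 difference beyond 0.5 was required, 1 cytosolic gene was called under DZ, 3 under adenine, 13 under SAM, and 11 for SAM against adenine, and 1, 1, 3, and 0 mitochondrial genes. The 1 cytosolic gene under DZ was Qars1, which was lower, so that no cytosolic rise under DZ passed this rule. For the count of 0, no gene had an unadjusted p under 0.05 in limma. Without a required size, limma and voom each called 8 mitochondrial genes for SAM against adenine, and 1 voom call was beyond 0.5. When 1 dish was left out, the cytosolic DZ median ranged from 0.20 to 0.21, the mitochondrial medians from -0.21 to -0.14 under adenine, -0.0893 to -0.0366 under SAM, and 0.0652 to 0.0939 for SAM against adenine, and the mitochondrial DZ count from 4 to 8.

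Among the genes named, values on the other side of 0 belonged to differences that did not pass as deposited. Under DZ these were Eprs1 (0.0118 with plain read totals, 0.0475 with quantile normalization, -0.0293 to 0.0109 without 1 dish), Farsb (-0.0114 with quantile normalization, -0.0410 to 0.0300 without 1 dish), Pars2 (0.0005 with quantile normalization, -0.0643 to 0.0295 without 1 dish), and Vars1 (-0.0094 to 0.0480 without 1 dish). With plain read totals they were Aars2 (0.0122) and Farsa (0.0007) under adenine, Hars2 (0.0406), Farsa (0.1191), Fars2 (0.0786), and Yars2 (0.1024) under SAM, and Kars1 (0.0002) and Qars1 (0.0397) for SAM against adenine. With quantile normalization they were Kars1 for SAM against adenine (0.0006), Ears2 under adenine (-0.0759), and Farsa under SAM (0.0261). Without 1 dish, values under SAM ranged from -0.0085 to 0.0427 for Hars1, -0.0428 to 0.0345 for Farsa, and -0.0483 to 0.0281 for Yars2, and for SAM against adenine from -0.0167 to 0.1014 for Pars2. The causes were not tested. Of 2372 values of the named synthetase genes under alternatives, 2173 kept their direction and call, 143 lost a call, 29 gained one, and 27 changed sign.

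Dishes with the same number did not deviate together (r from -0.14 to 0.18 over genes), so numbers did not pair the samples. A replicate block gave 10 and 13 called mitochondrial genes under DZ and adenine, where 9 and 12 were called without it, and the same cytosolic counts of 15, 17, 18, and 16.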
